A study of Mus musculus with 12 samples.

Results

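One chromosome conformation library of mouse embryonic stem cells carrying an activator directed at SBE2, an enhancer of Shh, was set beside 2 libraries of embryonic stem cells without it. The comparison used 3 of the 12 libraries of the series, of which 11 are distinct: tSBE2-Vp64 replicate 1 and ESC replicates 1 and 2. They were chosen by their titles, and each library was rescaled to a total of 1000 over the 341 restriction fragments present in every library. Both groups were 46c cells, a mouse embryonic stem cell line that carries a fluorescent reporter in Sox1, grown in GMEM with supplements and fixed with 1% formaldehyde. The tSBE2-Vp64 cells are labelled as transfected, and the ESC cells carry no such label. In the group name, t is taken to stand for TALE, a protein built to bind a chosen DNA sequence, and Vp64 for the viral activation domain fused to it. No library of cells with an SBE2-directed protein lacking the activator was analysed here, so transfection, binding at SBE2 and the activator cannot be told apart. The share of cells carrying the protein is not given in the labels, RNA was not measured, and the cell type could not be checked against marker genes.

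Shh, Sonic hedgehog, is a secreted morphogen of the developing neural tube and limb bud. Its enhancers lie in a gene-poor stretch upstream of the promoter, inside one topological domain that ends near Lmbr1: SBE6 is active in neural cells, SBE4 and SBE2 in the forebrain, and ZRS, within an intron of Lmbr1, in the limb. An enhancer can sit close to its promoter in the nucleus or far from it while it is active, and chromosome conformation capture measures such proximity as the frequency with which fixed, cut and religated DNA joins distant fragments. In 5C the joints are read with primers placed at HindIII sites, which gives a matrix of fragment by fragment signal.

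The region spanned chromosome 5, 28317087 to 30005000 in mm9, with a median fragment length of 2.42 kb, and 28980 fragment pairs had signal in any library of the series. A value below is a fragment pair's signal per 1000 of its library, or the mean of such values over the fragment pairs of a bin or window. Genes and enhancers were represented by 14 windows of 20 kb to each side of an approximate position. The SBE2 window held 14 fragments (29230618 to 29270862), the Shh window 9 (28770697 to 28806894), the SBE6 window 10 (28876512 to 28899338) and the SBE4 window 7 (29130489 to 29166826). Exons and introns were not assigned. With 1 tSBE2-Vp64 library no test was made: each value was placed above, within or below the range of the 2 ESC replicates, which measures only the spread between those 2 libraries.

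The low values of each file were whole multiples of a single step, which implied 22.0 M and 20.7 M reads for ESC replicates 1 and 2 and 48.1 M for tSBE2-Vp64. At similar depth the ESC replicates differed in coverage, with 86.7% and 49.9% of fragment pairs above 0, and tSBE2-Vp64 had 81.9%. They differed over 2-fold from each other in 49.1% of the 3439 bin pairs of 20 kb that entered the comparison. As a description across 28980 fragment pairs, which share a locus and its distance decay, the Spearman correlation of tSBE2-Vp64 was 0.48 with ESC replicate 1 and 0.35 with replicate 2, and 0.38 between the replicates. All counting intervals cover sampling of reads only, since 5C reads are amplified without molecular identifiers.

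In tSBE2-Vp64 a large part of the signal sat in a few joints between distant fragments. In the series, 21 fragment pairs over 50 kb apart exceeded 0.5% of any library, and they are called high-share pairs here. They held 31.1% of the tSBE2-Vp64 library, against 0.222% of ESC replicate 1 and 12.8% of ESC replicate 2. In tSBE2-Vp64, 9 of them passed the limit by themselves, against 0 and 7 in the ESC replicates. These 9 together held 28.2% of the tSBE2-Vp64 library, 0.183% of ESC replicate 1 and 11.0% of ESC replicate 2. They lay 98.9 to 1194 kb apart and joined 17 distinct fragments. With the edges of the Shh domain set at the approximate Shh and Lmbr1 positions, 5 of them crossed an edge.

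The highest pair joined Shh_140 (28763979 to 28767078), beside the Shh window, with Shh_260 (29166827 to 29168466), beside the SBE4 window. Its value was 0.492 in ESC replicate 1, 33.2 in ESC replicate 2 and 91.4 in tSBE2-Vp64. The SBE6 window was joined to the SBE2 window by Shh_178 (28884804 to 28887360) with Shh_295 (29253038 to 29259186), at 0.352, 10.1 and 51.2 in the same order. This was the only pair over the limit in tSBE2-Vp64 that held a fragment of the SBE2 window, and at 51.2 it was 5.06 times the higher ESC replicate. Lmbr1 was joined to Mnx1, a homeobox gene of motor neurons, by Shh_458 (29703904 to 29705290) with Shh_491 (29806189 to 29807449), at 0.438, 24.8 and 58.8. A further pair of the same windows, Shh_460 with Shh_491, went the other way relative to ESC replicate 2, at 0.197, 17.4 and 10.8.

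Of the other 5 pairs over the limit, Shh_13 with Shh_81, which lies in the window of the signalling modulator Cnpy1, stood at 0.183, 5.79 and 24.2. Shh_330 with Shh_529, in the window of the ubiquitin ligase gene Ube3c, stood at 0.0405, 2.85 and 21.1. Shh_128 with Shh_494, in the Mnx1 window, stood at 0.0456, 3.54 and 11.1. The other two involved Shh_143, in the Shh window, with Shh_321 (0.0736, 10.5 and 8.13) and Shh_20 with Shh_407 (0.0104, 1.77 and 5.17). Thus 7 of the 9 were higher in tSBE2-Vp64 than in both ESC replicates, a count partly fixed by selecting them on tSBE2-Vp64 itself. In all 9, ESC replicate 2 stood above ESC replicate 1.

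Over all 21 high-share pairs, 17 lay above both ESC replicates, 4 within their range and 0 below, a description only, since the pairs were picked for a high value in any library, tSBE2-Vp64 included. The ratio of tSBE2-Vp64 to the higher ESC replicate ran from 0.621 to 7.42 among the 9 pairs, with a median of 2.92. Each of the 9 was 121 to 9365 times the mean of its neighbouring fragment pairs in tSBE2-Vp64. The choice of the 9 by their value in that library partly sets this ratio, the ratio to ESC and their joint share of that library. Just past the limit stood Shh_20 with Shh_407, at 0.517% of the tSBE2-Vp64 library, and just under it Shh_69 with Shh_361, at 0.466%, which counts as high-share through another library. Because these pairs weigh on every total, the results that follow are given with and without them.

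**Figure D1:**
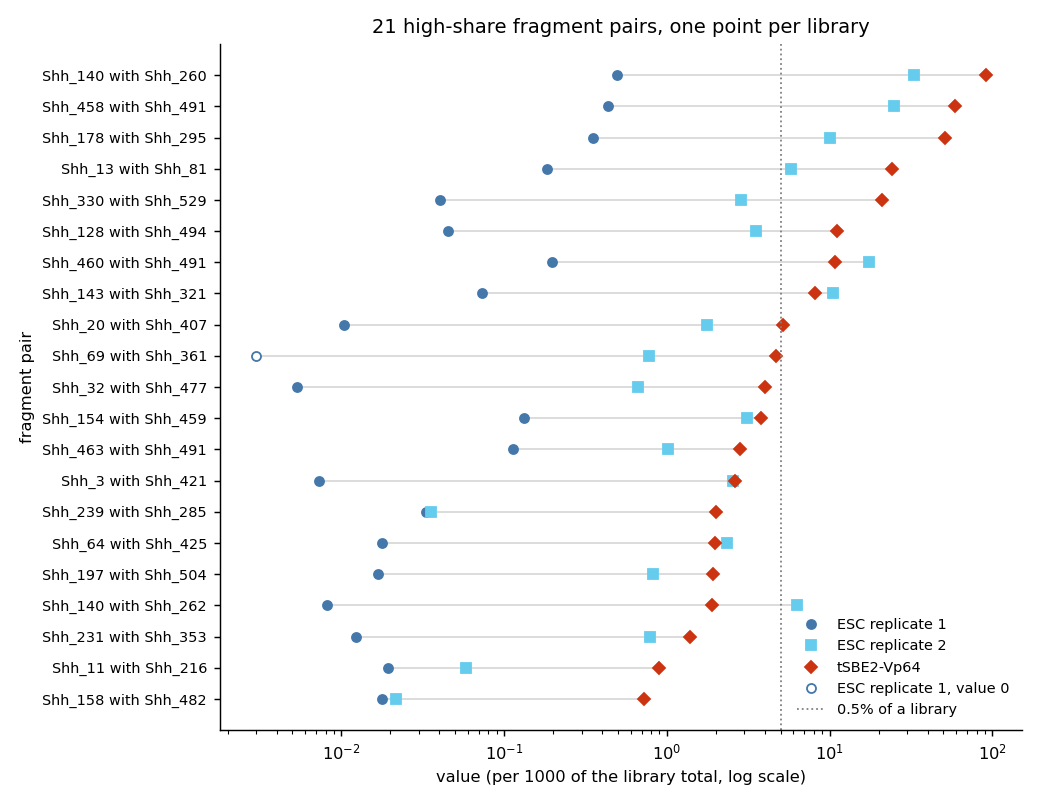
Value of each of the 21 high-share fragment pairs in ESC replicate 1, ESC replicate 2 and tSBE2-Vp64 (horizontal, per 1000 of the library total, log scale), with 1 point per library. The open circle at the left edge is a value of 0, and the dotted line marks 0.5% of a library, which 9 pairs pass in tSBE2-Vp64; ESC replicate 1 lies lowest in every pair.

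Below the 0.5% limit, pairs lay far outside the ESC range in both directions. Of 27187 such pairs over 50 kb apart with signal in any library, 2857 exceeded both ESC replicates over 10-fold in tSBE2-Vp64. The median of ESC replicate 2 over the 27187 pairs was 0. Of the 2857, 1668 were at 0 in both ESC replicates, and together the 2857 held 4.65% of the tSBE2-Vp64 library. In the opposite direction 2141 pairs were over 10-fold lower than both ESC replicates, and they held 2.85% and 4.08% of ESC replicates 1 and 2. Over all distances, 12109 fragment pairs were above 0 in all 3 libraries, and 1676 only in tSBE2-Vp64 (median 119.5 implied reads). Among the same 3 libraries, 2580 were above 0 only in ESC replicate 1 and 301 only in ESC replicate 2. Another 1269 were above 0 in both ESC replicates but not in tSBE2-Vp64. For these the median is 61 implied reads, taken from the lower ESC replicate of each pair. It is not comparable with the 119.5, which comes from a single library of greater depth.

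Among the 2857 pairs under the limit in every library and over 10-fold above both ESC replicates, the 5 highest in tSBE2-Vp64 are named here. Their ratios to ESC are partly set by that choice. Shh_134 with Shh_512 stood at 0.0101, 0.0293 and 2.83 in ESC replicate 1, ESC replicate 2 and tSBE2-Vp64. Shh_45, in the window of the midbrain and hindbrain homeobox gene En2, with Shh_549 stood at 0.0301, 0.152 and 2.80. Both forebrain enhancers and SBE6 appeared among the rest. Shh_176 in the SBE6 window with Shh_255 in the SBE4 window stood at 0.0157, 0.0235 and 2.06, which is 87.4 times the higher ESC replicate. Shh_288 in the SBE2 window with Shh_522 in the Ube3c window stood at 0.0149, 0.0782 and 1.50. Shh_258 in the SBE4 window with Shh_388 in the window of Rnf32, a RING finger gene, stood at 0.00629, 0.101 and 1.03.

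The place of the contact of SBE2 with the Shh promoter region depended on the processing, and over all pairs it lay within the ESC range. Over 63 fragment pairs, 457 kb apart, its mean value was 0.0142 in ESC replicate 1, 0.0105 in ESC replicate 2 and 0.0111 in tSBE2-Vp64. The log2 difference from the ESC mean (0.0124 ± 0.0026, SD, n = 2) was -0.14, beside a median of -0.18 over all bin pairs. The counting interval of the tSBE2-Vp64 value, from 33795 implied reads, was 0.0110 to 0.0113. With the high-share pairs left out the values became 0.0143, 0.0120 and 0.0162, above both ESC replicates by 1.13-fold, and the log2 difference became 0.28. All bin pairs moved with it, to a median of 0.22, so relative to that median the contact stood at 0.038 in one setting and 0.059 in the other. Other settings moved it: relative to the median it was -0.40 with 10-kb bins and windows and 0.96 with the median over fragment pairs. It was -1.02 after division by the mean at the same distance over all pairs. That mean includes the high-share pairs: from 398 to 501 kb it was 0.0476 in tSBE2-Vp64, and 0.0157 without them. Division by distance without the high-share pairs put the contact at 1.31, 1.16 and 1.03 times the mean, below both ESC replicates. Its log2 difference was then -0.24, beside a bin-pair median of -0.18. The SBE2 position is approximate: in a window nearer Shh (29184580 to 29223230) the contact was 0.0166, 0.0110 and 0.00768, below both ESC replicates, and also below both without the high-share pairs (0.0167, 0.0126 and 0.0111).

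Shh with the other enhancers was not uniform. With SBE4 it lay below both ESC replicates, at 0.0219, 0.0164 and 0.0113, and stayed below them without the high-share pairs, at 0.0219, 0.0188 and 0.0163. With SBE6 it lay between them, at 0.0186, 0.0144 and 0.0166, and with ZRS likewise, at 0.0203, 0.0112 and 0.0152. Both of these lay above the ESC range when the high-share pairs were left out, at 0.0241 for SBE6 and 0.0221 for ZRS. Over all fragment pairs, 0 of the 4 enhancer contacts of Shh lay above both ESC replicates, 3 within and 1 below, where 27.8% of the 3439 bin pairs lay above and 32.3% below. Without the high-share pairs 3 lay above and 1 below, and of all bin pairs 43.6% lay above and 21.1% below.

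Among the enhancers, SBE2 was joined to SBE6 far more in tSBE2-Vp64, and a single joint carried most of it. The mean over 70 fragment pairs was 0.0271, 0.201 and 0.787, above both ESC replicates, and Shh_178 with Shh_295 supplied 93.0% of the tSBE2-Vp64 signal. Without that joint the values were 0.0223, 0.0568 and 0.0557, within the ESC range. When all high-share pairs were removed and the libraries rescaled, tSBE2-Vp64 was again the highest, at 0.0808 against 0.0224 and 0.0652, with 67.2% now from Shh_178 with Shh_297. In the window nearer Shh, which holds neither Shh_295 nor Shh_297, SBE6 contact lay below both ESC replicates (0.0240, 0.0386 and 0.0154). SBE2 with SBE4 was 0.0451, 0.0231 and 0.0218, just below the ESC range, and within it without the high-share pairs. SBE2 with ZRS was 0.0178, 0.0418 and 0.0134, below the range, and within it (0.0194) without them.

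Of the genes on the far side of the domain, Ube3c stood out in its contact with SBE2. The values over 63 fragment pairs 646 kb apart were 0.00621, 0.0102 and 0.0492. The transfected library was 4.57 times the higher ESC replicate on the scale of value plus a pseudocount of 0.000667, and 5.76 times it without the high-share pairs. Shh_288 with Shh_522 supplied 48.4% of that signal, and without it the values were still 0.00607, 0.00914 and 0.0258. In the window nearer Shh the Ube3c contact was below both ESC replicates over all pairs, at 0.00816, 0.00590 and 0.00528. Without the high-share pairs it lay within their range there, at 0.00818, 0.00677 and 0.00767. SBE2 contact with Mnx1 was also above both replicates, at 0.00700, 0.00413 and 0.00797, and so was contact with the RNA-binding protein gene Rbm33 on the Shh side, at 0.00541, 0.00389 and 0.00679. These 2 stayed above without the high-share pairs, at 0.0116 and 0.00985. The Rnf32 contact lay below both ESC replicates over all pairs (0.0106) and, by only 1.06-fold, without the high-share pairs. In the window nearer Shh it lay below them over all pairs and within their range without the high-share pairs.

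The contacts of SBE2 with Insig1, a regulator of sterol synthesis, En2, Cnpy1, Lmbr1 and the nucleolar protein gene Nom1 all lay within the ESC range over all pairs. Their tSBE2-Vp64 values were 0.00948, 0.00537, 0.00467, 0.00675 and 0.00644 in that order. All 5 lay above it without the high-share pairs. In all, 4 of the 13 SBE2 contacts lay above both ESC replicates, 6 within and 3 below, and without the high-share pairs these counts were 10, 2 and 1. The background moved as well. Over the 91 window pairs the counts were 27, 37 and 27, and then 56, 28 and 7. Division of each value by its library's mean at the same distance, without the high-share pairs, gave 3 SBE2 contacts above, 7 within and 3 below, and put 26% of bin pairs above and 34.8% below. Placing the window nearer Shh gave 0 above, 6 within and 7 below, and without the high-share pairs 5, 6 and 2, so the SBE2 counts depend on where the window is centred.

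**Figure D2:**
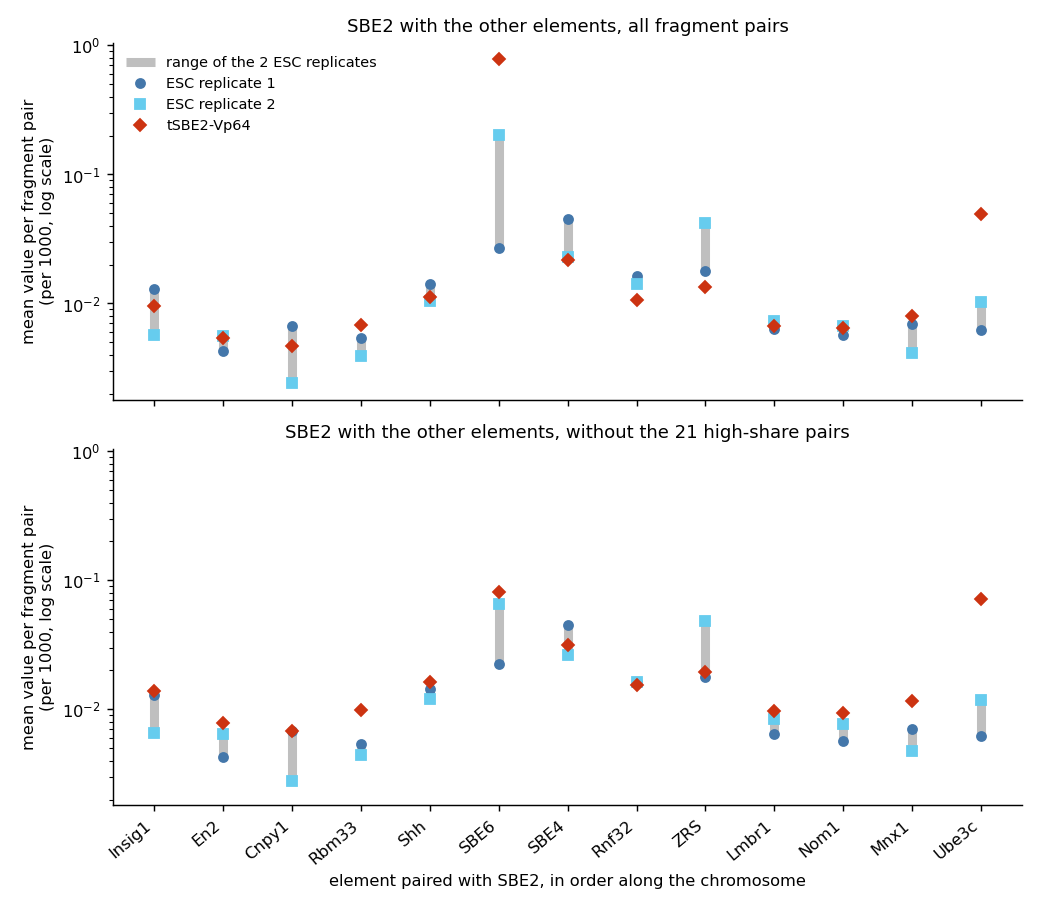
Mean value per fragment pair of SBE2 with each of the 13 other elements (vertical, per 1000, log scale), over all fragment pairs (top) and without the 21 high-share pairs (bottom), with 1 point per library and a grey bar for the range of the 2 ESC replicates. The tSBE2-Vp64 point for SBE6 drops from 0.787 to 0.0808 between the panels, while that for Ube3c stays above both ESC replicates.

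Seen from the SBE2 window, 79 bins lay over 50 kb away. In tSBE2-Vp64, 21 of them were above both ESC replicates and 23 below, and without the high-share pairs 34 were above and 8 below. In the latter setting 5 of the 79 bins were above by over 2-fold and 0 below, where 12.9% of all bin pairs were above and 4.36% below by that much. All 5 were near the far end of the region, from 29880001 to 30005000. The bin at 29880001, which holds the Ube3c position, stood at 0.00582, 0.0217 and 0.175, and the bin at 29920001 at 0.0112, 0.0253 and 0.150.

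Some bins at that end were high with much of the region, and others were not. Without the high-share pairs the Ube3c bin was above both ESC replicates in 54 of its 79 bin pairs over 50 kb apart, the bin at 29960001 in 65 of 79 and the bin at 30000001 in 59 of 72. Over 2-fold, the counts were 30, 38 and 41. This was not confined to that end: in the Shh-side flank the bin at 28440001 was above in 53 of 79 and the bin at 28460001 in 49 of 79. Over 2-fold, those bins had 27 and 26. The bin at 29920001 was above in 22 of 79 and below in 25, and the bin at 29980001 above in 33 of 80 and below in 17. The bin holding the SBE2 position was above in 30 of 79 pairs, or 38.0%, and below in 19, against 43.6% and 21.1% of all bin pairs. Summed over all partners more than 50 kb away, Shh_549 at the far end held 2.86, 3.55 and 13.9 per 1000, and Shh_522 in the Ube3c window 1.75, 0.630 and 6.28.

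**Figure D3:**
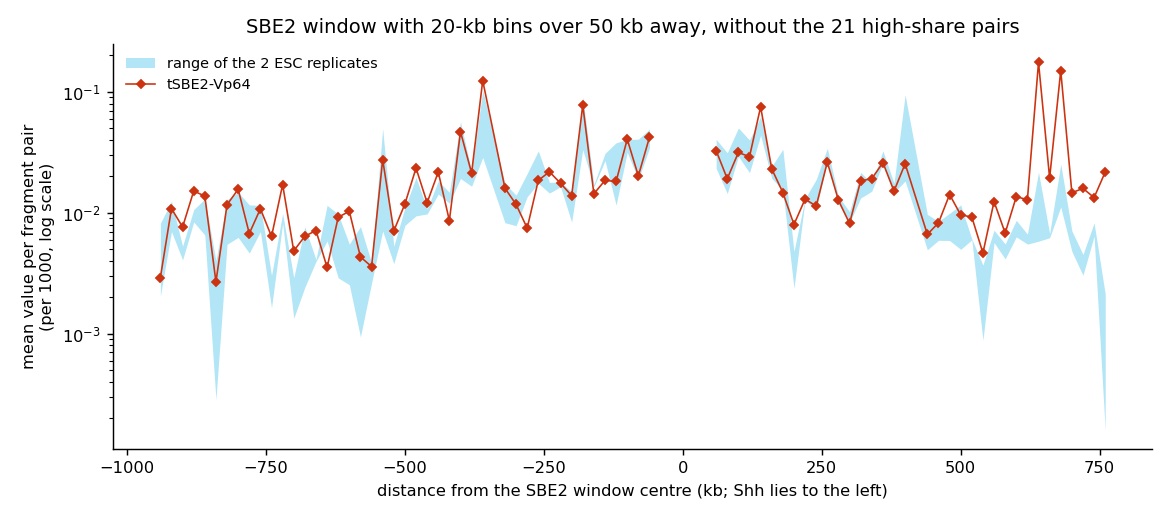
Mean value per fragment pair between the SBE2 window and each 20-kb bin over 50 kb away (vertical, per 1000, log scale) by distance from the window's centre (horizontal, kb), without the 21 high-share pairs. The shaded band is the range of the 2 ESC replicates and the diamonds are tSBE2-Vp64, which rides above the band at the right end, with 0.175 in the Ube3c bin.

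The long-range signal of the SBE2 window as a whole was 3.44% of ESC replicate 1, 4.03% of ESC replicate 2 and 8.42% of tSBE2-Vp64. Shh_295 alone summed to 5.49, 12.1 and 52.9 per 1000. Without the high-share pairs the window held 3.40%, 3.46% and 4.49%, still highest in tSBE2-Vp64. This held for all 14 windows in that setting, and the SBE2 window did not differ from them in its direction. The part of this signal that pointed toward Lmbr1 was 43.8%, 33.8% and 18.3%, and 44.3%, 45.2% and 49.7% without the high-share pairs, so its order among the libraries turned with those pairs.

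Close to each fragment the transfected library was poorer. Fragment pairs up to 20 kb apart held 56.1% and 55.0% of the ESC replicates and 30.7% of tSBE2-Vp64, and 56.2%, 63.1% and 44.5% without the high-share pairs. Neighbouring fragments alone held 45.0%, 46.6% and 23.3%, and 246 of these 318 pairs were below both ESC replicates. Among the fragments of the SBE2 window the mean was 0.501, 0.690 and 0.260, and among those of the Shh window 0.486, 0.552 and 0.291. The same measure was below both ESC replicates in 14 of 14 windows, and in 11 of 14 without the high-share pairs, the others being Insig1, En2 and Nom1. All of these are shares of a fixed total, so signal in the high-share pairs lowers them.

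A few short joints went the other way, and they are named after their values were seen. Shh_379, in the Rnf32 window, with Shh_403 stood at 0.0716, 3.04 and 15.3. At 45.2 kb it falls just short of the 50 kb limit and so stays in both settings, at 1.53% of the tSBE2-Vp64 library. Shh_549 with Shh_550 stood at 1.45, 3.63 and 8.61, and Shh_388, also in the Rnf32 window, with Shh_407 at 0.0463, 0.395 and 3.96.

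Signal decayed less steeply with distance in tSBE2-Vp64. From 20 to 1000 kb the slope of log10 value on log10 distance was -0.67 and -0.48 in the ESC replicates and -0.35 in tSBE2-Vp64, and -0.68, -0.57 and -0.53 without the high-share pairs. Between 50 and 200 kb the tSBE2-Vp64 means then lay within the ESC range, for example 0.0217 against 0.0244 and 0.0176 from 100 to 200 kb. From 400 to 800 kb they lay above it, at 0.0145 against 0.00919 and 0.00892, and from 800 kb on at 0.0149 against 0.00762 and 0.00859. Between 20 and 50 kb tSBE2-Vp64 was also above both, at 0.0878 against 0.0682 and 0.0514, in the class that holds Shh_379 with Shh_403.

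**Figure D4:**
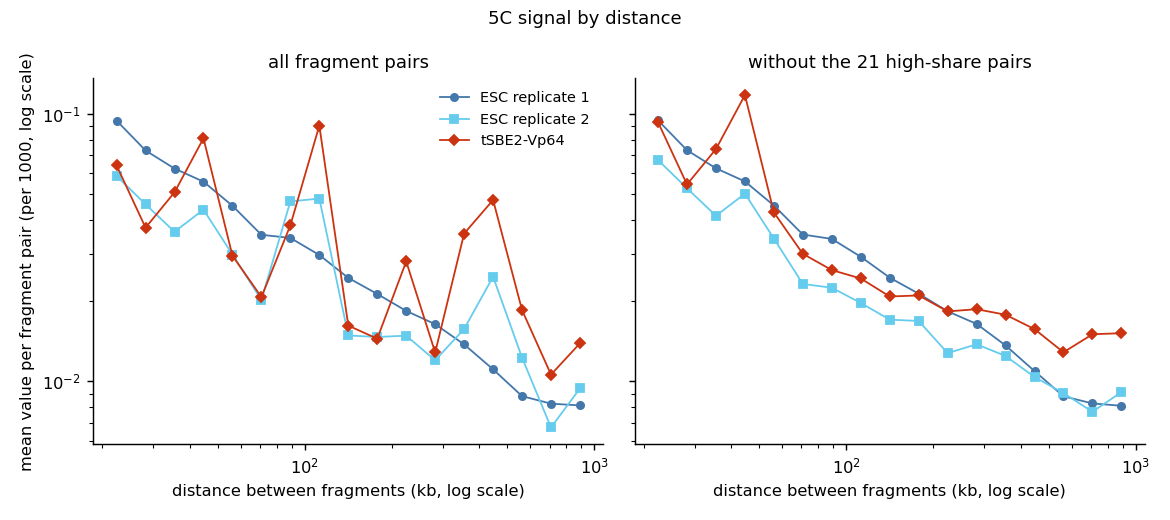
Mean value per fragment pair (vertical, per 1000, log scale) in classes of distance between fragments (horizontal, kb, log scale), for ESC replicate 1, ESC replicate 2 and tSBE2-Vp64, over all fragment pairs (left) and without the 21 high-share pairs (right). On the left the tSBE2-Vp64 line has peaks where high-share pairs fall, and on the right it runs within the ESC lines from 50 kb to about 250 kb and above both beyond that.

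Contacts leaving the Shh domain, taken from the Shh to the Lmbr1 position, made up more of the transfected library. Both positions are approximate, and no other placing of the edges was tried. Over all pairs this matters for single joints: Shh_458 with Shh_491 counts across the Lmbr1-side edge, but Shh_460 with Shh_491 within the flank. The share of signal joining the domain with its flanks was 11.7% and 20.2% in the ESC replicates (15.9% ± 6.0, SD, n = 2) and 34.7% in tSBE2-Vp64, 18.7 percentage points above the ESC mean. Without the high-share pairs it was 11.6%, 12.9% and 20.8%, which is 8.57 points above. Division by the mean at the same distance, over all pairs, left 4.65 points. That is a share of the divided values, with the high-share pairs in the mean, so the ESC SD of 6.0 does not apply to it. Across the Shh-side edge the shares were 5.85%, 11.7% and 18.4%, and across the Lmbr1-side edge 5.86%, 8.45% and 16.3%. Without the high-share pairs they became 5.80%, 6.87% and 9.71% on the Shh side and 5.81%, 6.06% and 11.1% on the Lmbr1 side. Of the signal over 50 kb alone, without the high-share pairs, the Shh-side edge held 15.5%, 21.3% and 20.5%, so that tSBE2-Vp64 lay within the ESC range, and the Lmbr1-side edge held 15.3%, 18.3% and 23.2%, above it. The share within the domain was 51.7%, 45.5% and 36.7%, and 51.8%, 51.0% and 45.4% in the second setting, below both ESC replicates each time.

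Counted by bin pairs rather than by signal, 97 of the 888 within the domain were above both ESC replicates and 403 below. Across the Lmbr1-side edge 282 of 683 were above and 164 below, and across the Shh-side edge 355 of 1058 and 278. Without the high-share pairs the domain counts were 252 and 261, and those of the Lmbr1-side edge 391 and 100. These classes differ in distance, and in the distance classes the same order appeared: 10 of 159 bin pairs under 50 kb apart were above both replicates, against 394 of 977 over 800 kb apart. After division by the mean at the same distance, without the high-share pairs, the Lmbr1-side edge had 253 above and 180 below. The Shh-side edge then had more below than above, 345 against 275. Within the domain 147 were above and 385 below, and of all 3439 bin pairs 894 were above and 1196 below.

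**Figure D5:**
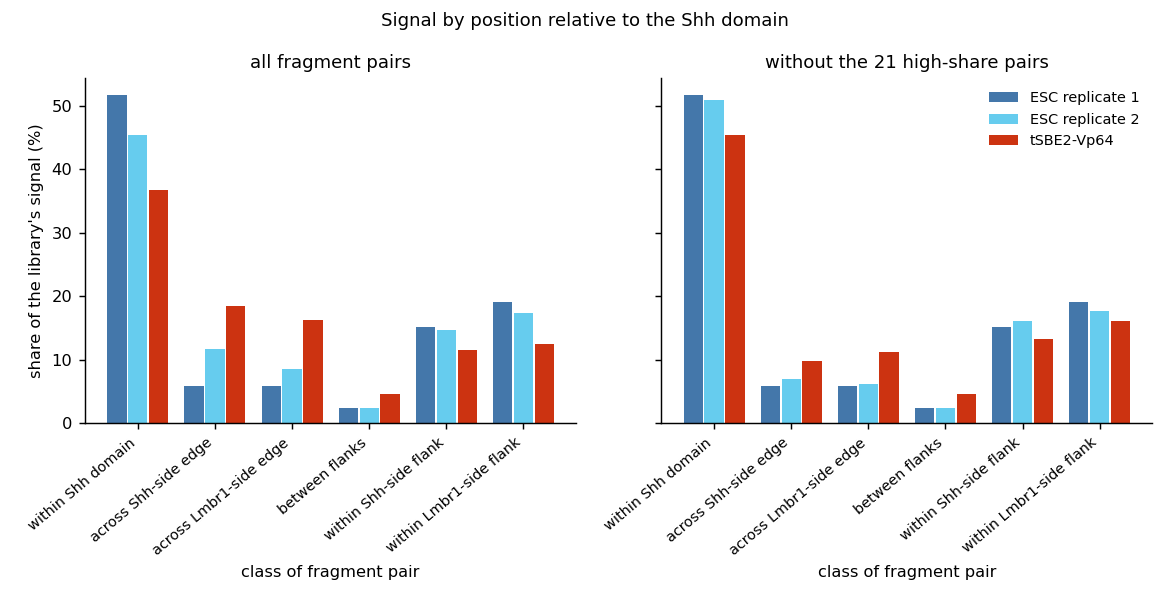
Share of each library's signal (vertical, %) in 6 classes of fragment pair set by the Shh domain and its flanks, over all fragment pairs (left) and without the 21 high-share pairs (right), with 1 bar per library. The tSBE2-Vp64 bars are the lowest of the 3 within the domain and within each flank and the highest across both edges and between the flanks.

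Over 2-fold beyond the ESC range, 260 of 3439 bin pairs (7.56%) were above and 274 (7.97%) below, and without the high-share pairs 445 (12.9%) above and 150 (4.36%) below. After division by distance in that setting they were 204 (5.93%) above and 311 (9.04%) below. The balance depended on the scale: with totals set over pairs beyond 50 kb alone, the counts were 122 above and 688 below, with a bin-pair median of -0.84. Among bin pairs of at least 4 fragment pairs not dominated by one, and without the high-share pairs, the 5 farthest above lay across a domain edge, 3 of them with the bin at 29960001. The farthest joined it to the bin at 29060001, at 0.00515, 0 and 0.0798. The next joined it to the bins at 29040001 (0.000507, 0.000228 and 0.0103) and 29340001 (0.00470, 0.00255 and 0.0407). The other two joined 28940001 with 29720001, which overlaps the Lmbr1 window (0.00329, 0.000578 and 0.0310), and 28440001 with 29540001 (0.00321, 2.78e-05 and 0.0263).

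The 5 farthest below, in the same setting, were spread over the region. The bin at 28880001, in the SBE6 window, with 29040001 was the only one within the domain, at 0.0259, 0.0112 and 0.000485. The bin at 28720001 with 29120001, which overlaps the SBE4 window, stood at 0.00846, 0.00672 and 0, and 28520001 with 29040001 at 0.00875, 0.00681 and 5.02e-05. The remaining pairs joined the flanks: 28320001 with 29880001 (0.0147, 0.00746 and 1.50e-05) and 28660001, beside Rbm33, with 29760001, which holds Nom1 (0.0126, 0.00583 and 8.76e-05).

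Of the window pairs not yet described, which leaves out those of SBE2 and of Shh with the enhancers, the 5 farthest above the ESC range without the high-share pairs were SBE6 with SBE4, SBE4 with Rnf32, En2 with ZRS, SBE6 with Lmbr1 and Insig1 with Ube3c. The values that follow are over all fragment pairs unless stated. SBE6 with SBE4 stood at 0.0265, 0.0197 and 0.0809, of which Shh_176 with Shh_255 supplied 72.6%. Without that joint it was within the range (0.0228). Without that joint and the high-share pairs it lay above, at 0.0269, 0.0225 and 0.0331. SBE4 with Rnf32 stood at 0.0177, 0.0165 and 0.0410, and lay below the range, at 0.0127, without Shh_258 with Shh_388. Without the high-share pairs as well it lay just above, at 0.0181, 0.0162 and 0.0184. SBE6 with Lmbr1 rested less on one joint: 0.00554, 0.00567 and 0.0126, and 0.0104 without its highest pair. En2 with ZRS stood at 0.00699, 0.00241 and 0.0152, of which Shh_53 with Shh_444 supplied 51.0%, and at 0.00709, 0.00247 and 0.00766 without that joint. Insig1 with Ube3c stood at 0.0147, 0.0189 and 0.0297, and at 0.0156, 0.00566 and 0.0266 without its highest pair.

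Of the same window pairs, and in the same setting, the 5 farthest below were En2 with Shh, En2 with Cnpy1, En2 with Mnx1, Insig1 with Mnx1 and Nom1 with Mnx1. En2 with Shh stood at 0.0257, 0.0304 and 0.0143, and remained below both ESC replicates without its highest pair (0.0165, 0.0258 and 0.0106). Insig1 with Mnx1 stood at 0.0120, 0.0103 and 0.00459, and En2 with Mnx1 at 0.0299, 0.0176 and 0.0137. En2 with Cnpy1 stood at 0.0343, 0.0262 and 0.0195, and Nom1 with Mnx1 at 0.0604, 0.0404 and 0.0294. These values are over all fragment pairs. That each also lay below both ESC replicates without the high-share pairs follows from the choice of the 5. In that setting En2 with Mnx1 was only 1.02-fold below the lower replicate, and En2 with Cnpy1 1.06-fold. Without its highest pair as well, each of these lay within the ESC range.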

How the data were processed

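5C was measured in 12 libraries of mouse cells; tSBE2-Vp64 (1 library) was set against ESC (2 replicates). The deposited files hold normalized signal per pair of HindIII fragments, scaled by the authors to about 1000 per library as the values show, with fragments named in mm9 coordinates per the file headers. Which aligner and filters were used is not given in the sources used here. Low values were whole multiples of a step in 100% of cases (within 0.05 of a step), from which reads were implied. One NPC library appeared under 2 sample titles and was counted once.

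Each library was rescaled to 1000 over 341 shared fragments. Values were averaged over fragment pairs in 20-kb bins and windows, leaving out bin pairs above 0 in fewer than 2 biological replicates. Folds and log2 differences used value plus 0.000667, the 5th percentile of positive bin values (0.000779 without the high-share pairs). Python 3.11.15 with numpy 2.4.6 was used, and the placement code was tested on simulated data. No test or p-value was computed, since 1 library gives no spread.

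Named items were all SBE2 contacts and Shh with SBE6, SBE4 and ZRS, the 5 window pairs and 5 bin pairs farthest above and below the ESC range without the high-share pairs, every pair over 50 kb apart with over 0.5% of tSBE2-Vp64, and the 5 highest others over 10 times both ESC replicates. Members and lists were chosen with earlier results of these data known. Window positions came from knowledge of the locus, not from an mm9 annotation. Alternatives varied the scale, the limit on single pairs, bin size, pseudocount, filter, average and ESC replicate; a second SBE2 window and bin pairs without their highest fragment pair were added after seeing the data.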

Additional observations from a re-analysis of the deposited data

How the results depend on the processing

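No paired analysis was possible because tSBE2-Vp64 has replicate 1 alone, so the groups share fewer than 2 replicate numbers. Of the 6 results, the share joining the Shh domain with its flanks could respond to only 5 of the alternatives, and it kept its direction under those 5, from 4.65 to 23.0 percentage points. It was 8.57 points without pairs over 0.5% of a library and 7.09 without pairs over 0.1%. After division by the mean at the same distance it was 4.65, as a share of the divided values rather than of signal. Counts are given next as bin pairs over 2-fold above and below the ESC range, then SBE2 contacts above and below it, then the log2 difference of Shh with SBE2; over all pairs they were 260, 274, 4, 3 and -0.14. Without pairs over 0.5% they were 445, 150, 10, 1 and 0.28, and without pairs over 0.1% 471, 136, 10, 1 and 0.34. With totals over pairs beyond 50 kb they were 122, 688, 2, 7 and -0.82. Division by the mean at the same distance, with the high-share pairs kept in that mean, gave 130, 574, 2, 7 and -1.70. The median over fragment pairs gave 397 above, 0 SBE2 contacts below and 0.69. Bins and windows of 10 kb gave 1128, 1317, 2, 5 and -0.69, over 9778 bin pairs, and those of 40 kb gave 61, 10 and 2 SBE2 contacts above, over 945. A pseudocount 10 times larger gave 126 and 80 bin pairs. The SBE2 window nearer Shh gave 0 and 7 contacts and -0.79. Leaving out one ESC replicate at a time gave 445 to 1016 bin pairs above, 474 to 919 below, 7 SBE2 contacts above and 6 below each time, a log2 difference of -0.33 to 0.081, and a share difference of 14.5 to 23.0 points; the lower counts above and the higher counts below came without ESC replicate 2. The causes of these shifts were not tested, except that fewer bins or 1 replicate in place of a range set how many values can lie outside. The deposited scale, the choice of fragment pairs, the low filter and 0.1 times the pseudocount moved no result by more than 1.5 times or 1 ESC SD. Values near 0 are least certain in ESC replicate 2, where 49.9% of pairs were above 0 at an implied depth (20.7 M reads) close to that of ESC replicate 1 (22.0 M).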

Other observations

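The joints that were high in tSBE2-Vp64 had these values in libraries outside the comparison. Shh_140 with Shh_260, at 91.4 in tSBE2-Vp64, stood at 103.5 to 134.7 in the 3 distinct NPC libraries, 16.0 in tSBE6-Vp64 and 16.0 to 52.1 in the 4 tSBE(6+2-Vp64) libraries. Shh_178 with Shh_295, which joins SBE6 with SBE2, stood at 51.2 in tSBE2-Vp64, 63.5 to 72.5 in NPC, 5.24 in tSBE6-Vp64 and 6.40 to 29.2 in tSBE(6+2-Vp64). High values of these pairs were also present in cells without the SBE2 activator.

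The next pairs were picked for a high value in tSBE2-Vp64, over 10 times both ESC replicates, and a value under the 0.5% limit in every library, so a high place of tSBE2-Vp64 among the libraries is partly set by that choice. Shh_176 with Shh_255, which joins SBE6 with SBE4, stood at 2.06 in tSBE2-Vp64, 0.0561 to 0.130 in NPC, 0.164 in tSBE6-Vp64 and 0.0601 to 1.11 in tSBE(6+2-Vp64). Shh_288 with Shh_522, which joins SBE2 with Ube3c, stood at 1.50 in tSBE2-Vp64, 0.809 to 0.997 in NPC, 0.0888 in tSBE6-Vp64 and 0.0432 to 0.699 in tSBE(6+2-Vp64). No test was made of these orders.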
